A study of Homo sapiens with 12 samples.

Results

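The TALE homeobox cofactors of HOX proteins were followed in HEK293 cells, a line derived from human embryonic kidney, with and without overexpression of the RNA-binding protein RBMX. The 9 genes were taken by symbol from the 25268 rows of the expression table: *MEIS1*, *MEIS2*, *MEIS3*, *PBX2*, *PBX3*, *PBX4*, *PKNOX1*, *PKNOX2* and *TGIF1*. The list was made with earlier results of these data known. Cells received 2 µg of pCMV6-HIS-HA-RBMX, in which a viral promoter drives tagged RBMX, or the mock empty vector, called control here although the labels give it the genotype wild type. Each vector had 3 total and 3 polysomal RNA libraries, numbered by replicate, so 12 libraries fell into 4 groups of 3. Polysomal RNA came from the gradient fractions that hold mRNAs carrying several ribosomes. Total RNA was made by pooling 20% of each fraction collected, so it is the RNA of the nucleus-free lysate and not of whole cells. All cells were treated with cycloheximide before lysis, and transfection was transient, so that the cells of a dish were a mixture of transfected and untransfected cells. The values are FPKM, fragments mapped to a gene divided by its transcript length and scaled between libraries. How they were scaled is not given in the sources used here, and the FPKM of a library summed to between 817528 and 1903317. The depth behind each value is unknown, and p-values measure the spread between replicates only.

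TALE proteins carry a homeodomain whose loop between the first and second helix is longer by 3 amino acids, and this loop extension gives the class its name. MEIS, PBX and PKNOX proteins bind DNA together with HOX proteins and with each other, and so sharpen the choice of sites by HOX factors that alone recognise very similar sequences. TGIF proteins share the homeodomain but act mainly as repressors of retinoic acid and TGF-β signalling. RBMX is a nuclear member of the hnRNP family known for its role in splicing. The study asked whether RBMX binds the mRNAs of homeobox genes and affects their expression. It also used RNA immunoprecipitation, knock-down of RBMX and tests of exon usage. The values per gene used here cover RNA levels in total and polysomal RNA only and cannot show exon usage.

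The loop is the feature that these genes share and that separates them from the HOX genes they assist. The coding stretches below show it in the longest annotated open reading frame of each gene in GENCODE release 29, with the 3 loop codons in capitals, 2 codons before them and 5 after.

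MEIS1: acacacCCTTACCCTtctgaagaacagaaa
MEIS2: acacatCCGTACCCTtccgaagagcagaag
MEIS3: tcgcacCCGTACCCCtcggaggagcagaag
PBX2: agtaacCCATATCCTagtgaggaggccaag
PBX3: agcaacCCCTACCCCagtgaagaagccaaa
PBX4: aacaacCCTTACCCCagcgaagaagccaaa
PKNOX1: gggcatCCCTACCCAacagaggatgagaaa
PKNOX2: atgcacCCCTACCCCacggaggatgagaag
TGIF1: tacaatGCCTATCCTtcagagcaagaaaaa

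The capitals encode proline, tyrosine and proline in 8 of the genes, and alanine, tyrosine and proline in TGIF1. Within a subfamily the stretches were close: MEIS1 and MEIS2 shared 25 of 30 bases and encoded the same residue at 10 of 10 codons, PBX3 and PBX4 shared 27 bases, and PKNOX1 and PKNOX2 shared 24. TGIF1 encoded the same residue as MEIS1 at 5 of the 10 codons. The likeness ended at the scale of a sequenced read. The longest identical stretch between the reference transcripts of any 2 of the genes was 28 bases, over 36 pairs, against reads of 100 bases.

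In the GRCh38 annotation, which is not the hg19 build behind the deposited values, the genes lay on 8 chromosomes and all were annotated as protein-coding. *MEIS1* was at chr2:66433452-66573869 (plus strand), *MEIS2* at chr15:36889204-37101299 (minus) and *MEIS3* at chr19:47403124-47419523 (minus). *PBX2* was at chr6:32184741-32190186 (minus), *PBX3* at chr9:125747345-125967377 (plus) and *PBX4* at chr19:19561707-19618916 (minus). *PKNOX1* was at chr21:42974510-43033931 (plus), *PKNOX2* at chr11:125164687-125433389 (plus) and *TGIF1* at chr18:3411608-3459978 (plus). Exons of other genes covered 15.1% of the exonic bases of *PBX2* on the same strand, and 4.19% of *MEIS1* and 3.99% of *MEIS2* on the opposite strand. Strand cannot separate the genes that overlap at *PBX2*, and for *MEIS1* and *MEIS2* the library kit does not mark strand. Fragments in those stretches cannot be assigned to either gene with certainty. Of the 100-base windows of the *PBX2* transcript, 8.89% also occurred in the processed pseudogene PBX2P1, whose stretch at the loop was identical in 30 of 30 bases, so the values of *PBX2* carry that uncertainty.

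The markers went with the labelled cell type, although they cannot identify the line, and *RBMX* was higher where the labels name its overexpression. All 7 markers associated with HEK293 were above 1 FPKM in every library, among them *VIM* and *KRT18*, and all 9 markers of blood, liver, endothelium, fibroblasts and adult kidney were below 1. The summed level of the HEK293 markers was between 869 and 1002 FPKM in the RBMX libraries. In control cells it reached 922 in total and 970 in polysomal RNA, but control replicate 3 had only 459 and 424, and that replicate also lay farthest from the other replicates of its group over all genes. *RBMX*, which the plasmid encodes, was between 108 and 147 FPKM in control total RNA and between 1460 and 2073 in RBMX total RNA. It rose by 3.71 on the log2(FPKM + 1) scale in total RNA (limma adjusted p = 0.00269) and by 3.25 in polysomal RNA (adjusted p = 0.0415). Fewer cells that express a gene and less RNA of it per cell cannot be told apart in these bulk samples.

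All 9 TALE cofactors were expressed in every library, and all passed the filter of a mean of at least 0.5 FPKM. Their levels, which FPKM gives per length of transcript, spanned a wide range. The highest was *PBX2*, whose protein is the broadly expressed member of the PBX family, with a mean of 54.3 FPKM over the 12 libraries (range 48.6 to 66.3). This was above 84.8% of the 14676 genes tested. *TGIF1* followed with 38.6 FPKM (30.5 to 44.5) and *PBX3* with 21.7 (14.9 to 28.7). *MEIS3* had 13.9 FPKM (11.9 to 16.9) and *MEIS2* 11.5 (9.94 to 13.4). *PKNOX1*, a partner of PBX that is present in most tissues, had 7.13 FPKM (6.27 to 7.71), and *MEIS1*, known as a cofactor of HOXA9 in leukaemia, had 4.24 (3.59 to 4.51). The lowest were *PKNOX2* with 1.86 FPKM (1.55 to 2.17) and *PBX4*, best known from testis, with 1.39 (0.86 to 1.86). Both were expressed above only 13.7% and 10.4% of the genes tested.

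The order was nearly the same in every library. The ranges of neighbours did not overlap between *PBX2* and *TGIF1*, *TGIF1* and *PBX3*, *MEIS2* and *PKNOX1*, *PKNOX1* and *MEIS1*, or *MEIS1* and *PKNOX2*. They overlapped for *PBX3* and *MEIS3*, for *MEIS3* and *MEIS2*, and for *PKNOX2* and *PBX4*, although the first of each was higher in 11, 10 and 9 of the 12 libraries. Within subfamilies the levels were unequal. *PKNOX1* was on average between 3.54 and 4.16 times *PKNOX2* in the 4 groups, and *MEIS2* between 2.39 and 2.96 times *MEIS1*. *PKNOX1* varied least over the 12 libraries, with a coefficient of variation of 5.05%, and *PBX4* most, with 23.6%.

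**Figure D1:**
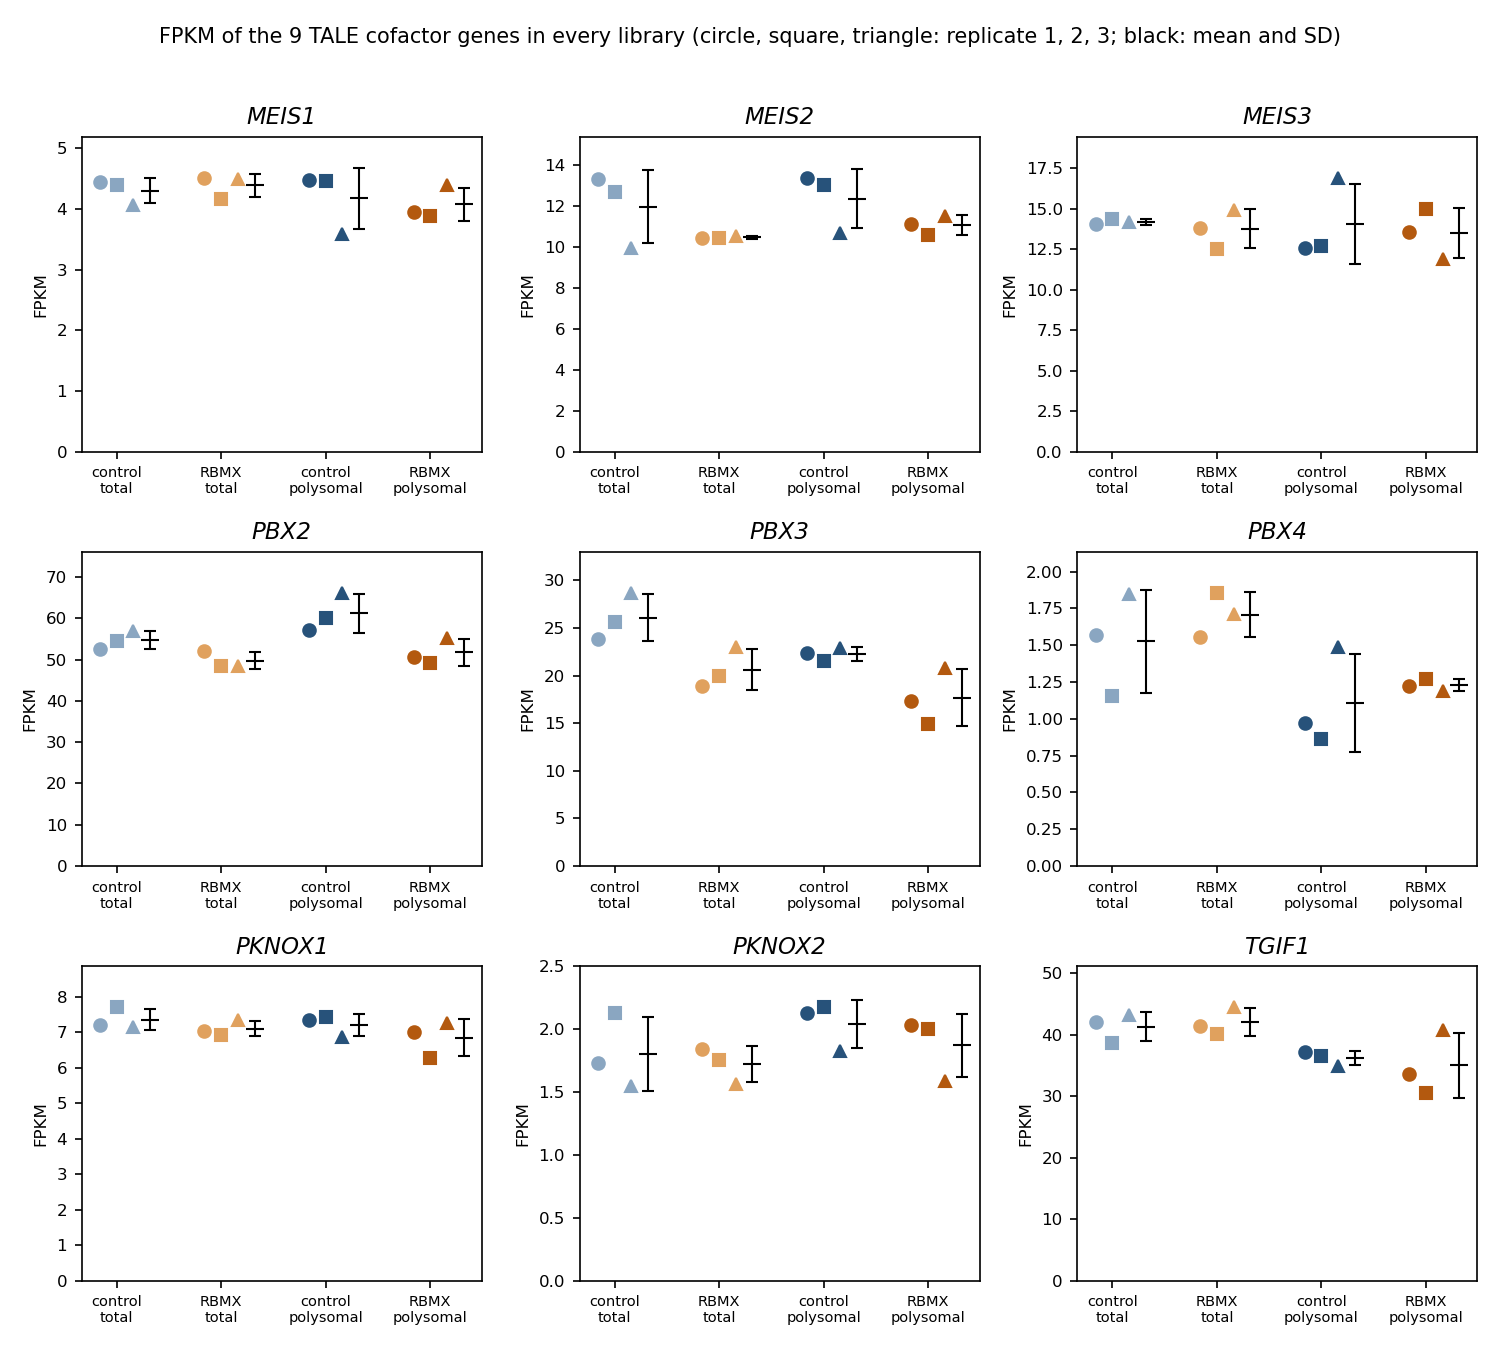
FPKM (vertical axes, each starting at 0) of the 9 genes in the 4 groups, with circles, squares and triangles for replicates 1, 2 and 3 and black marks for the mean and SD (n = 3). The RBMX points of *PBX3* and *PBX2* lie below the control points of the same fraction, while the groups of most other genes overlap.

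The first question was whether RBMX changed the level of these genes. In total RNA 0 of 9 passed the threshold (limma, adjusted p of 0.05), where 0.164% of all genes tested did (24 of 14676). At an unadjusted p under 0.05 there was 1 of 9, *PBX3*, against 18.8% of all genes, and the groups did not overlap for 2 of 9, *PBX3* and *PBX2*, against 27.3% of all genes. The median log2 fold change of the 9 genes was -0.04, beside 0 for all genes. These shares are near or below the background, and by them the cofactors as a group did not stand apart from other genes.

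The lowest value was that of *PBX3*, followed by *MEIS2* and *PBX2*. *PBX3*, whose protein pairs with HOX and MEIS factors in blood and brain, was 23.8, 25.6 and 28.7 FPKM in the control total RNA libraries and 18.9, 20.0 and 23.0 in the RBMX ones. All 3 RBMX libraries were thus below all 3 controls, although the nearest pair differed by less than the spread within either group. The log2 fold change was -0.33 (SE 0.10, adjusted p = 0.207). Without single libraries it ran from -0.40 to -0.26. The highest control value was that of replicate 3, the replicate that lay farthest from its group. *PBX2* was 52.5, 54.6 and 56.9 FPKM in control and 52.1, 48.6 and 48.6 in RBMX total RNA, a log2 fold change of -0.13 (SE 0.057, adjusted p = 0.284). The groups of *PBX2* were separate by a narrow margin. Without single libraries its log2 fold change ran from -0.17 to -0.11, and control replicate 3 again had the highest value. *PBX4* had a value above 0, at 1.57, 1.16 and 1.85 FPKM in control and 1.56, 1.86 and 1.71 in RBMX cells (log2 fold change 0.11, SE 0.11, limma adjusted p = 0.632), with overlapping groups. Without control total replicate 2 it was -0.00076.

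The MEIS genes overlapped between the vectors. *MEIS2*, a regulator of limb, heart and neural crest development, was 13.3, 12.7 and 9.94 FPKM in control total RNA and 10.5, 10.4 and 10.5 in RBMX total RNA. Control replicate 3 was lower than all RBMX libraries while the other controls were higher, and this is the replicate with the low sum of HEK293 markers. The log2 fold change of *MEIS2* was -0.17 (SE 0.11, adjusted p = 0.458), and without control total replicate 3 it was -0.29 (SE 0.046, adjusted p = 0.119). *MEIS1* had 0.02 (SE 0.061) and *MEIS3* -0.04 (SE 0.074). The 95% intervals of these genes ran from -0.45 to 0.11 for *MEIS2*, from -0.13 to 0.17 for *MEIS1* and from -0.23 to 0.14 for *MEIS3*, so that a change of 1 log2 unit lay outside all 3 intervals.

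*PKNOX1*, *PKNOX2* and *TGIF1* also overlapped between control and RBMX total RNA. Their log2 fold changes were -0.04, -0.04 and 0.03, with adjusted p-values between 0.704 and 0.867. *TGIF1* was the only one of the 9 whose sign turned under another scaling of the libraries, to -0.04 with quantile normalization.

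In polysomal RNA 0 of 9 genes passed the threshold, against 0.0477% of all genes (7 of 14676). *PBX2* and *PBX3* had an unadjusted p under 0.05, which is 2 of 9 against 11.7% of all genes, and the same 2 genes were those whose groups did not overlap, against 22.5% of all genes. *PBX2* was 57.2, 60.2 and 66.3 FPKM in the control and 50.7, 49.2 and 55.4 in the RBMX libraries, with a log2 fold change of -0.24 (SE 0.087, adjusted p = 0.417). *PBX3* was 22.4, 21.5 and 23.0 FPKM in the control and 17.4, 14.9 and 20.8 in the RBMX libraries, with -0.33 (SE 0.13, adjusted p = 0.418). For both genes every RBMX library was below every control library, and control replicate 3 had the highest value. Without single libraries the log2 fold change ran from -0.29 to -0.18 for *PBX2* and from -0.44 to -0.22 for *PBX3*. The log2 fold change was below 0 for 8 of 9 genes, against 49.5% of all genes above 0, and the exception was *PBX4* with 0.09. The median was -0.07, beside 0 for all genes. *MEIS2* had -0.14 (SE 0.10, adjusted p = 0.584), and -0.23 (adjusted p = 0.246) without control polysomal replicate 3.

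Whether the RBMX effect differed between the fractions was tested over all 12 libraries as an interaction of vector and fraction. 0 of 9 genes passed the threshold, against 0.0204% of all genes, and 0 of 9 had an unadjusted p under 0.05, against 0.6% of all genes. The estimates lay between -0.10 for *PBX2* and 0.03 for *MEIS2*. For *PBX3*, the effect in polysomal minus that in total RNA was -0.0024 with a 95% interval from -0.38 to 0.37.

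**Figure D2:**
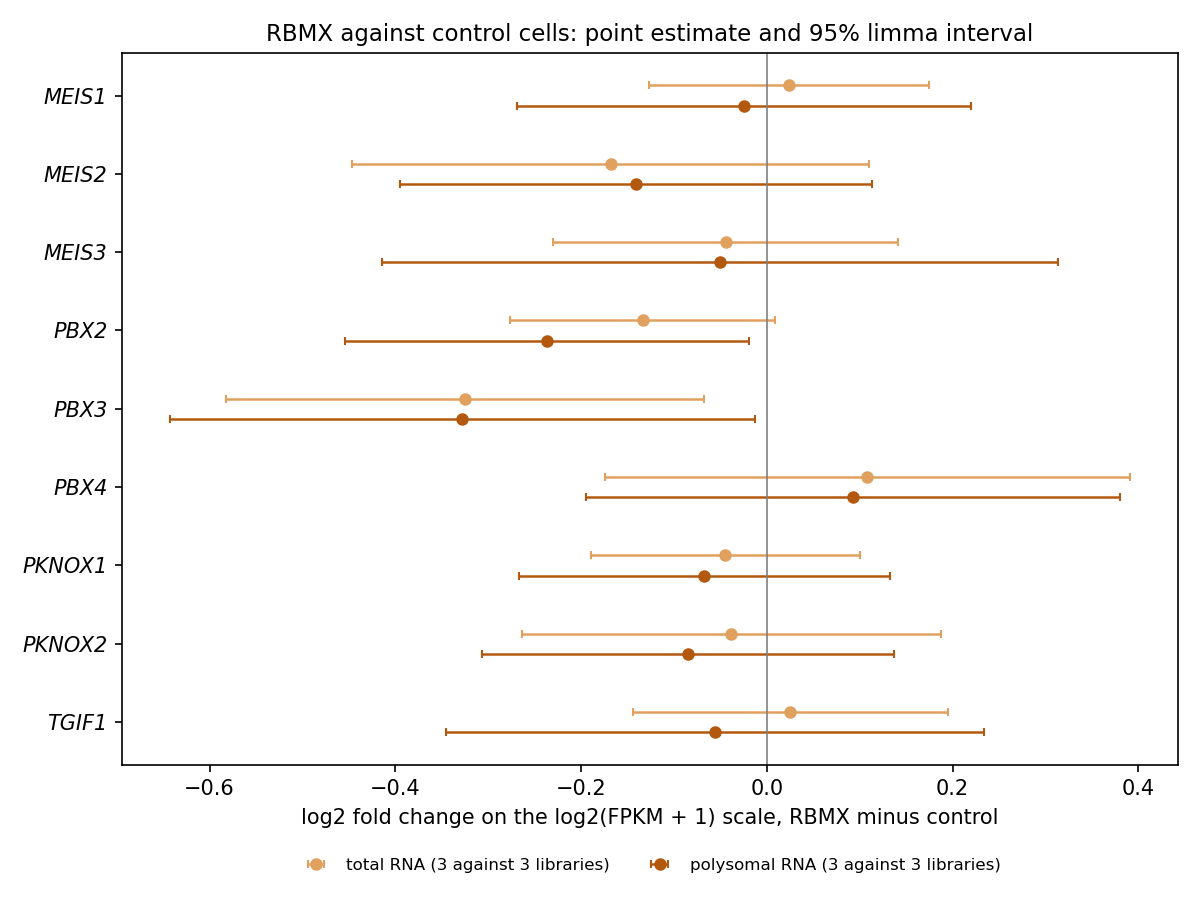
Log2 fold change of RBMX against control cells (horizontal axis, log2(FPKM + 1) scale) for each gene in total (light) and polysomal RNA (dark), with 95% limma intervals from 3 against 3 libraries. *PBX3* lies at -0.33 in both fractions, and its intervals leave out 0 before adjustment over all genes.

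The second question was how the polysomal RNA of these genes compared with their total RNA. Total RNA also holds the polysomal fractions, and the scaling of the libraries removes differences in the overall amount of RNA. The comparison is thus of a part with the whole and does not give the share of an mRNA on polysomes. The comparisons share their control or RBMX libraries with those above, so they are no separate evidence. In control cells 0 of 9 genes passed the threshold, against 0.0818% of all genes (12 of 14676). An unadjusted p under 0.05 was found for 2 of 9, *TGIF1* and *PBX3*, against 8.04% of all genes. The groups did not overlap for 3 of 9, with *PBX2* higher and *PBX3* and *TGIF1* lower in polysomes, against 14.9% of all genes. In RBMX cells again 0 of 9 genes passed, against 1.34% of all genes (196 of 14676). *PBX4* had an unadjusted p under 0.05, which is 1 of 9 against 23% of all genes, and the groups did not overlap for *MEIS2*, which was higher, and *PBX4*, which was lower in polysomes, which is 2 of 9 against 30.8%.

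Since the values of both vectors were alike, total and polysomal RNA were also compared over all 12 libraries with the vector as a covariate, a comparison chosen after those values had been seen. Here 0 of 9 genes passed the threshold, against 8.93% of all genes (1310 of 14676). The 3 genes with the lowest p-values were *TGIF1*, *PBX4* and *PBX3*, all lower in polysomes, and they were the 3 of 9 with an unadjusted p under 0.05, against 25.8% of all genes. Since total RNA was pooled from gradient fractions, a total and a polysomal library can share a gradient. The labels do not say that those of the same number do, so neither this fit nor those within each vector pair the libraries. With the replicate number within each vector as a block, the same 3 genes passed the threshold with the same log2 differences. The adjusted p was 0.00778 for *PBX4*, 0.0211 for *TGIF1* and 0.0257 for *PBX3*, which is 3 of 9 where 23.9% of all genes passed. The ratio of polysomal to total FPKM was then taken between libraries with the same replicate number, as a description. It lay on the same side of 1 in all 6 pairs for 5 of the 9 genes, against 32.4% of all genes.

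*TGIF1*, the repressor of retinoic acid and TGF-β signalling, was 42.0, 38.6 and 43.1 FPKM in control total RNA and 37.1, 36.5 and 34.9 in control polysomal RNA. In RBMX cells it was 41.4, 40.1 and 44.5 in total and 33.7, 30.5 and 40.7 in polysomal RNA. The polysomal libraries were lower in each vector, with an overlap only in RBMX cells, where polysomal replicate 3 was above total replicate 2. The ratio was between 0.762 and 0.944 in the 6 pairs. Over all 12 libraries the log2 difference was -0.23 (SE 0.066, adjusted p = 0.0575 without the block and 0.0211 with it).

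*PBX4* was 0.973, 0.86 and 1.49 FPKM in control polysomal RNA and 1.23, 1.27 and 1.19 in RBMX polysomal RNA, below the total RNA values of the same replicate in every case. Its ratio was the lowest of the 9 genes, with means of 0.722 ± 0.094 in control and 0.722 ± 0.057 in RBMX cells (SD, n = 3). The log2 difference was -0.27 (SE 0.082, adjusted p = 0.064 without the block and 0.00778 with it) over all libraries and -0.28 (SE 0.053, adjusted p = 0.0822) in RBMX cells alone. Without control total replicate 2 and without the block, the difference over all libraries was -0.32 (adjusted p = 0.0363), and without control polysomal replicate 3 it was -0.33 (adjusted p = 0.0127). *TGIF1* crossed the threshold without RBMX polysomal replicate 3, at -0.27 (adjusted p = 0.0282). These are the runs that passed. Without single libraries the difference ran from -0.33 to -0.23 for *PBX4* and from -0.27 to -0.18 for *TGIF1*. Of 21 alternative runs, *PBX4* passed in 4 and *TGIF1* in 3, with limma adjusted p-values up to 0.148 and 0.115.

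*PBX3* had ratios between 0.746 and 0.939 and a log2 difference of -0.22 (SE 0.079, adjusted p = 0.116 without the block and 0.0257 with it). *PBX2* had ratios of 1.09, 1.10 and 1.17 in control cells, all above 1, against 0.973, 1.01 and 1.14 in RBMX cells. The log2 difference of *PBX2* over all libraries was 0.11 (SE 0.051, adjusted p = 0.218). Within a library, *PBX3* over *PBX2* was 0.476 ± 0.026 in control total and 0.365 ± 0.024 in control polysomal RNA, and 0.416 ± 0.056 and 0.341 ± 0.037 in RBMX cells (SD, n = 3). The groups of this ratio were separate in control cells and overlapped in RBMX cells.

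*MEIS2* and *PKNOX2* were the genes with ratios above 1 in all 6 pairs. *MEIS2* had ratios between 1.00 and 1.09, a log2 difference of 0.06 (SE 0.072, adjusted p = 0.657), and *PKNOX2* between 1.01 and 1.23, a log2 difference of 0.10 (SE 0.064, adjusted p = 0.365). *MEIS1* and *PKNOX1* were close to 1, with mean ratios between 0.928 and 0.98. *MEIS3* had the widest spread, from 0.797 to 1.199, with pairs on both sides of 1 in each vector.

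**Figure D3:**
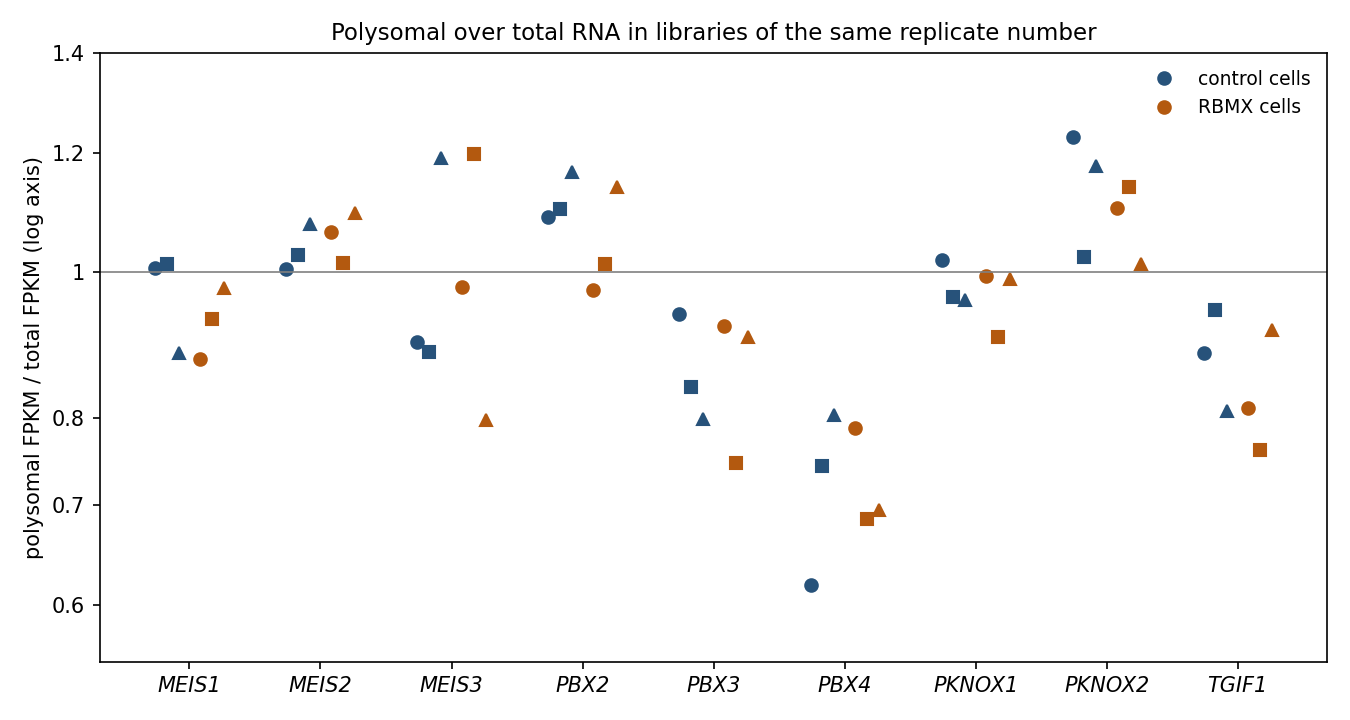
Ratio of polysomal to total FPKM (log axis) between libraries with the same replicate number, for control cells (blue) and RBMX cells (orange), with circles, squares and triangles for replicates 1, 2 and 3. All 6 points lie below 1 for *PBX3*, *PBX4* and *TGIF1* and above 1 for *MEIS2* and *PKNOX2*.

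**Figure D4:**
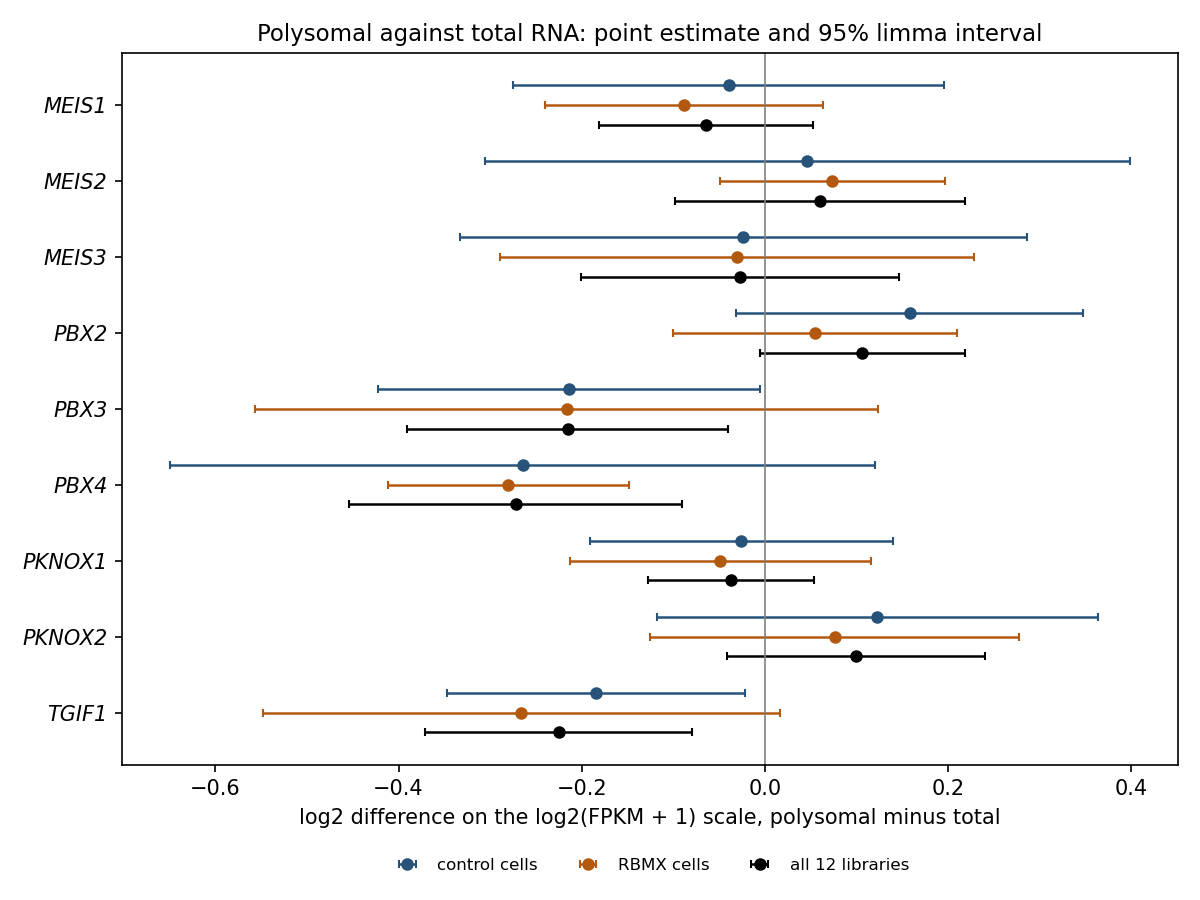
Log2 difference of polysomal against total RNA (horizontal axis, log2(FPKM + 1) scale) with 95% limma intervals in control cells, in RBMX cells and over all 12 libraries. The intervals over all 12 libraries leave out 0 for *PBX3*, *PBX4* and *TGIF1*, whose adjusted p-values in this fit, without the replicate block, were between 0.0575 and 0.116.

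*MEIS3* needs a caution of its own. The processed pseudogene MEIS3P1 (chr17:15786618-15787575 in GRCh38, plus strand), an intronless copy, was listed with 13.5 FPKM on average, as high as *MEIS3* itself. Its stretch at the loop was MEIS3P1: tcacacCCGTACCCCtcggaggagcagaag, which is identical to that of *MEIS3* in 29 of 30 bases. The longest identical stretch of both transcripts was 78 bases, shorter than a read of 100 bases, yet an aligner that tolerates mismatches may place a fragment at either. The pseudogenes MEIS3P2 and TGIF1P1, which had no row of their own, shared up to 86 bases with *MEIS3* and 60 with *TGIF1*. The values of both genes carry the same uncertainty. *MEIS3* over MEIS3P1 lay between 0.834 and 1.32 in the 12 libraries. MEIS3P1 was 15.2 ± 1.59 FPKM in control and 13.01 ± 0.466 in RBMX total RNA (SD, n = 3), with separate groups and a log2 fold change of -0.21 (SE 0.085, adjusted p = 0.274), whereas the groups of *MEIS3* overlapped. Which part of either value belongs to the other row was not tested.

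The levels of the 9 genes were correlated only in part. Of the 36 pairs, 20 had a Pearson correlation above 0. The highest was 0.71 for *PBX3* and *PKNOX1* and the lowest -0.77 for *PBX4* and *PKNOX2*, which had the lowest levels and opposite polysome ratios. These correlations describe 12 libraries that share cultures, vectors and fractions. For the highest gene of each subfamily, the genes with the most similar profile were *ST6GALNAC2*, *MAP3K10* and *IFNLR1* for *MEIS3* (correlations of 0.89, 0.89 and 0.85) and *FIBP*, *LAYN* and *C2orf72* for *PBX2* (0.95, 0.93 and 0.93). They were *C2orf43*, *ALX1* and *DCLRE1A* for *PKNOX1* (0.97, 0.96 and 0.92) and *RPL19P12*, *SNX16* and *TUBD1* for *TGIF1* (0.92, 0.91 and 0.91). Each was the best of 14185 genes, and no member was among them.

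Other TALE genes, of the IRX and MKX branches and *TGIF2*, were partly silent in these cells. *IRX1* was listed at 0 in all 12 libraries, and of the 8 genes listed 5 passed the filter. In total and in polysomal RNA 0 of 5 passed the threshold between RBMX and control. *MKX*, the mohawk gene of tendon development, had the largest value. It was 4.30, 4.13 and 4.61 FPKM in control and 2.78, 3.01 and 2.76 in RBMX total RNA, a log2 fold change of -0.47 (SE 0.061, adjusted p = 0.113). In polysomal RNA it was 3.96, 3.88 and 3.66 against 2.49, 2.15 and 2.92, with -0.46 (SE 0.095, adjusted p = 0.40). In both fractions every *MKX* value of RBMX cells was below every control value. *TGIF2* was also lower and *IRX5* higher without overlap in both fractions, and *IRX6* was higher without overlap in total RNA only. Total RNA thus had separate groups for 4 of these 5, beside 27.3% of all genes. Polysomal RNA had them for 3 of 5, beside 22.5%. The unadjusted limma p was under 0.05 for *MKX* in both fractions and for *IRX6* in total RNA. *IRX5*, *IRX3* and *IRX6* were above 0, at 0.18, 0.14 and 0.12 in total RNA (adjusted p between 0.204 and 0.478).

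The HOX genes, the partners of MEIS, PBX and PKNOX on DNA, were expressed almost in full. Of the 39 listed 36 passed the filter, and 29 of 30 in paralog groups 1 to 10, which are the groups whose proteins are known to bind with PBX. *HOXA9* was the highest with 54.6 FPKM on average, a level like that of *PBX2*. Between RBMX and control 0 of 36 passed the threshold in total RNA and 0 of 36 in polysomal RNA, while 24 and 29 of 36 had a log2 fold change below 0 (medians of -0.05 and -0.14, beside 0 for all genes). Examples were *HOXD8* with -0.42 (SE 0.095, adjusted p = 0.175) and *HOXC10* with -0.38 (SE 0.072, adjusted p = 0.17) in total RNA, and *HOXD9* in the other direction with 0.35 (SE 0.31, adjusted p = 0.56). Between fractions 1 of 36 passed in RBMX cells and 1 of 36 over all 12 libraries, beside the 1.34% and 8.93% of all genes given above, and in both fits it was *HOXB2*. It was between 52.8 and 53.9 FPKM in control total and between 32.8 and 42.3 in control polysomal RNA, and between 50.8 and 54.8 against 30.7 and 34.6 in RBMX cells. Its log2 difference was -0.69 (SE 0.061, adjusted p = 0.0212) in RBMX cells and -0.62 (SE 0.065, adjusted p = 0.00107) over all libraries. Beside it, *PBX4* had -0.27 over all libraries, the largest among the 9 cofactors. The log2(FPKM + 1) scale shrinks the difference of a gene as low as *PBX4* more, and among the alternative runs it reached -0.44.

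The list of protein partners held 15 genes, all of which passed the filter. It included *PBXIP1*, which keeps PBX from binding DNA, the SMAD proteins and corepressors that TGIF1 recruits, and *MYBBP1A*, a binding partner of PKNOX1. Between RBMX and control 0 of 15 passed in either fraction. *MYBBP1A* was 35.8, 33.3 and 25.9 FPKM in control and 47.8, 43.3 and 38.9 in RBMX total RNA (log2 fold change 0.45, SE 0.14, adjusted p = 0.206). *PBXIP1* had 0.30 (SE 0.25, adjusted p = 0.55), with control replicate 3 low at 4.90 FPKM, and *SMAD2* had -0.24 (SE 0.072, adjusted p = 0.197). The log2 difference of polysomal against total RNA was above 0 for 13 of 15 in control and 15 of 15 in RBMX cells, with medians of 0.14 and 0.21, where 49.8% and 49.3% of all genes were above 0, yet 0 of 15 passed in either. Over all 12 libraries 1 of 15 passed, which is not above the 8.93% of all genes in that fit. It was *CTBP1*, a corepressor bound by TGIF1, which was higher in polysomes by 0.21 (SE 0.049, adjusted p = 0.0267). *TGIF1* itself had -0.23 in the same fit.

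**Figure D5:**
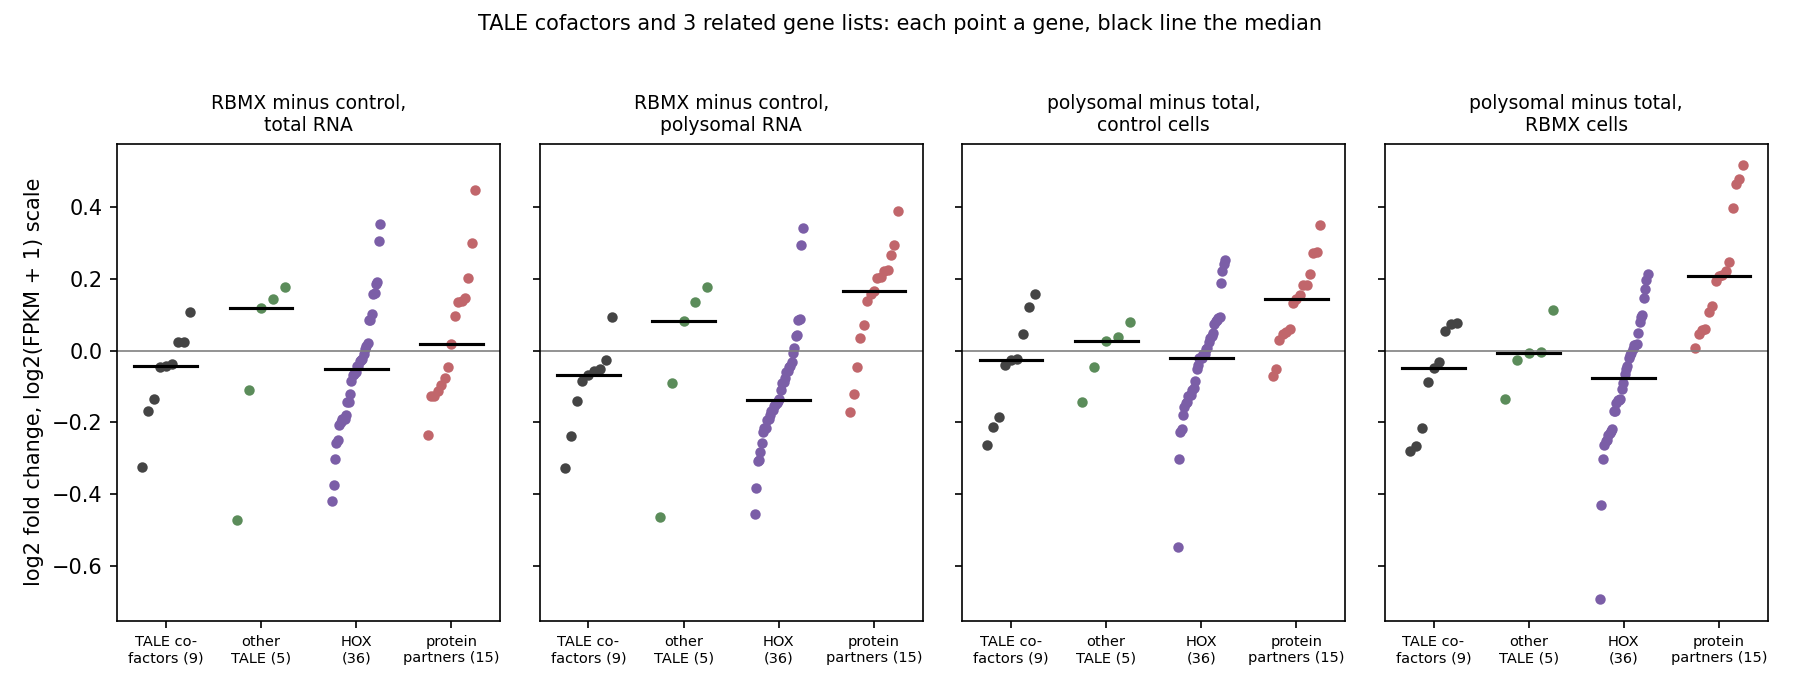
Log2 fold changes (vertical axis, log2(FPKM + 1) scale) of the 9 TALE cofactors, 5 other TALE genes, 36 HOX genes and 15 protein partners in the 4 comparisons of 3 against 3 libraries, with a point per gene and a black line at the median. The protein partners lie above 0 in polysomal against total RNA, with medians of 0.14 and 0.21, while the cofactors have medians of -0.03 and -0.05.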

How the data were processed

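RNA-seq of total and polysomal RNA was analysed from 12 libraries of HEK293 cells. The authors deposited FPKM values per gene symbol. The submitters' processing notes name CASAVA 1.8, TopHat2 2.0.13, Cufflinks 2.2.1, Cuffnorm and hg19, whereas the study's methods describe another pipeline. The annotation is not given in the sources used here. Counts were not used here, and whole reads could not be recovered from the FPKM steps, so depth is unknown.

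Values were analysed as log2(FPKM + 1), which understates changes of low genes, for 14676 genes with a mean of at least 0.5 FPKM over the 12 libraries, with limma 3.58.1 (trend, R 4.3.3) and Benjamini-Hochberg adjustment over all genes tested. The threshold was 0.05. The code was tested on simulated data. RBMX was compared with control in each fraction, polysomal with total RNA in each vector, and the effects by an interaction. The fit over all 12 libraries was added after seeing the data. All 9 members are named. Of related genes, the 3 most correlated per subfamily and up to 4 examples per list are named, those passing first, then the largest change in total RNA. The members and lists were chosen with earlier results of these data known.

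Alternatives were the pseudocount, filters on low values, median-ratio and quantile normalization, small RNA genes left out, no variance trend, all groups in one fit, a replicate block, and leaving out each library. The block was the replicate number, taken within each vector in fits that held both fractions. For RBMX against control it was the number shared by both vectors, although the labels do not say that these were paired. Sequences and positions came from GENCODE 29 (GRCh38), read with Python 3.11.15, and figures were drawn with matplotlib 3.10.9.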

Additional observations from a re-analysis of the deposited data

How the results depend on the processing

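Over the 5 comparisons planned, 0 of the 9 cofactors passed the threshold under any alternative run. The sign held under every alternative for 35 of 54 single-gene results, counting the added comparison over all 12 libraries, and turned for 19, none of which had passed. Of these, *PBX4* for RBMX against control in total RNA was the farthest from 0, at 0.11. The cause of the changes below was not tested.

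The count of cofactors that passed over all 12 libraries went from 0 to 1 with median-ratio rescaling (*TGIF1*, adjusted p = 0.0438), to 1 with quantile normalization (*PBX4*, adjusted p = 0.0493) and to between 0 and 1 without single libraries. With the replicate number within each vector as a block it was 3 (*PBX4*, *TGIF1* and *PBX3*), and 5 had an unadjusted p under 0.05. This block raised the count of all genes called there from 1310 to 3512, but lowered it from 196 to 4 for polysomal against total RNA in RBMX cells. For RBMX against control in total RNA, a block on the number shared by both vectors lowered it from 24 to 13. The labels do not say that a number marks a shared gradient. Deviations of equally numbered total and polysomal libraries correlated between 0.031 and 0.748, over 0.1 in 5 of 6 pairs, and 6 of 12 libraries correlated best with their own number, so the paired fit stayed an alternative. It changed no call of a cofactor in the planned comparisons.

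Cofactors with an unadjusted p under 0.05 numbered 2 without a filter and 2 with quantile normalization for RBMX against control in total RNA, where the reported count was 1, and 1 without small RNA genes in polysomal RNA, where it was 2. For polysomal against total RNA in control cells, where it was 2, they numbered 1 with median-ratio rescaling, 0 with quantile normalization, 0 without small RNA genes, 0 with all libraries in 1 fit and 4 with the replicate block. In RBMX cells, where it was 1, they numbered 2 with median-ratio rescaling, 2 without small RNA genes, 2 with the replicate block and 2 with all libraries in 1 fit. Without single libraries these 4 counts ran from 0 to 1, from 0 to 2, from 0 to 2 and from 1 to 3. The counts of all genes called ran from 13 to 178 and from 2 to 126 for RBMX against control in total and polysomal RNA, and from 6 to 41 and from 4 to 439 for polysomal against total RNA in control and RBMX cells.

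Signs turned with quantile normalization for *TGIF1* in total RNA (-0.040), for *PKNOX1* between fractions in control cells (0.0039) and for *PBX3* in the interaction (0.0091). They turned in the interaction with median-ratio rescaling for *MEIS3* (0.0033) and *PBX3* (0.0074), and with a pseudocount of 0.1 for *PBX4* (0.00037). Without single libraries, the log2 fold change of RBMX against control in total RNA ran from -0.0093 to 0.053 for *MEIS1*, -0.10 to 0.018 for *MEIS3*, -0.00076 to 0.20 for *PBX4*, -0.10 to 0.043 for *PKNOX2* and -0.020 to 0.057 for *TGIF1*. In polysomal RNA it ran from -0.11 to 0.019 for *MEIS1*, -0.13 to 0.080 for *MEIS3* and -0.17 to 0.034 for *TGIF1*. For polysomal against total RNA in control cells it ran from -0.084 to 0.045 for *MEIS1*, -0.072 to 0.14 for *MEIS2*, -0.15 to 0.044 for *MEIS3* and -0.045 to 0.0058 for *PKNOX1*. In RBMX cells it ran from -0.11 to 0.050 for *MEIS3* and -0.087 to 0.0054 for *PKNOX1*, and over all 12 libraries from -0.085 to 0.0092 for *MEIS3*. The interaction without a replicate of either vector ran from -0.14 to 0.13 for *MEIS3*, -0.055 to 0.089 for *PBX3*, -0.074 to 0.018 for *PBX4* and -0.043 to 0.015 for *PKNOX1*.

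With 3 libraries a group, 0 of the 9 cofactors passed in the planned comparisons, and the depth that limits each value is unknown. For *PBX4* and *PKNOX2*, both under 2.2 FPKM, the pseudocount shrinks any change.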
